A study of Mus musculus with 5 samples.

Results

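The nuclear genes for the subunits of the respiratory chain and of ATP synthase were followed in MIN6 cells that had been given exosomes from mouse muscle. MIN6 is a mouse insulinoma line that makes insulin and serves as a model of the pancreatic beta cell, and exosomes are small vesicles that cells shed into their surroundings. The EXO-HP group (3 arrays, EXO-HP 1 to 3) received vesicles of mice fed a high fat diet, and the EXO-STD group (2 arrays, EXO-STD 1 and 2) received those of mice fed a standard diet. All 5 cultures therefore received muscle vesicles, and a culture without vesicles was not analysed here. Muscle was dissected and kept in medium, and the vesicles were collected by ultracentrifugation. The strain, age and number of the mice, the vesicle dose and the time of exposure are not given in the sources used here. RNA of each sample was read on a 1-colour Agilent array.

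A gene was taken as a member if its name on the array began with Nduf followed by a, b, c, s or v and a number, was Sdha, Sdhb, Sdhc or Sdhd, began with Uqcr, Atp5 or Cox4 to Cox8, or was Cyc1 or Cycs. This gave 85 of the 31829 gene names on the array, carried by 116 probes. A single probe measured 62 of the genes, and for the other 23 the probe with the highest mean signal stood for the gene. Of the 85 genes, 73 encode subunits that cells use broadly, called core subunits here: 35 of complex I, 4 of complex II, 8 of complex III, 11 of complex IV, 14 of ATP synthase (complex V) and cytochrome c. Another 8 genes are isoforms of restricted tissues or states, and 4 carry a matching name but encode no stable subunit and were kept apart. The probes of all 73 core subunits were well above background on all 5 arrays. Among the 8 isoforms, 7 passed the filter on dim probes and 1, Cox8c, did not, so that 84 of the 85 genes were tested.

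The respiratory chain of the inner mitochondrial membrane passes electrons from NADH (complex I) and succinate (complex II) through ubiquinone, complex III and cytochrome c to complex IV, which reduces oxygen to water. Complexes I, III and IV pump protons, and ATP synthase uses the proton gradient to make ATP. In beta cells this ATP couples glucose to insulin release, because a higher ratio of ATP to ADP closes potassium channels and opens the way for calcium entry. Most subunits are encoded in the nucleus, and a small core of them is encoded in mitochondrial DNA.

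Promoter sequences are shown first. Textbook regulators shared by many core subunits are NRF1, the ETS factor GABP, YY1 and the estrogen related receptor ERR alpha. A part of these factors in any difference between arrays was not tested. RefSeq windows of 300 bases, 250 before and 50 after the annotated start (build GRCm38.p6), were found for 68 of the 85 genes, in 74 windows. The letters CGCANGCG, the core of the NRF1 motif, were in 40.5% of the members' windows and in 8.21% of the 32851 windows of all genes. CCGGAAG, read here for ETS factors, was in 21.6% against 8.86%, AAGATGGC for YY1 in 16.2% against 2.75%, TCAAGGTCA for ERR alpha in 2.7% against 0.423%, and TATAAA in 10.8% against 13.6%. Both strands were searched, no motif contains another, and a match is a match of letters and not a measured site. The windows of all genes were not matched to those of the members in base composition. The windows below are of 1 member of each complex with an NRF1 match, and of the muscle isoform Cox8b, which had a TATAAA match and none of the others. Capitals mark every match on either strand. Sdhd holds matches to the NRF1, ETS and ERR alpha motifs, and Atp5g3 matches to the NRF1 and ERR alpha motifs.
Ndufa6, chr15:82354242-82354541, minus strand: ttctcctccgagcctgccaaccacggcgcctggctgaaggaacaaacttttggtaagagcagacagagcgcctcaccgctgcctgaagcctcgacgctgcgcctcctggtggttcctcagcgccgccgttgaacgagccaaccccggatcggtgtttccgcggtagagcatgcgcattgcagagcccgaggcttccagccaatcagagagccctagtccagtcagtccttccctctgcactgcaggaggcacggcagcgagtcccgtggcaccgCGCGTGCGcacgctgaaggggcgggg
Sdhd, chr9:50603800-50604099, minus strand: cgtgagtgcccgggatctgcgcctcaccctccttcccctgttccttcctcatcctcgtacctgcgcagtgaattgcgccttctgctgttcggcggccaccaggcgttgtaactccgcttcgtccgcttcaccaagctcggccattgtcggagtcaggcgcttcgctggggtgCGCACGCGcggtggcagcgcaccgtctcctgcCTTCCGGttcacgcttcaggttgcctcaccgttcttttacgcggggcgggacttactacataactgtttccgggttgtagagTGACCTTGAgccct
Uqcrc1, chr9:108936398-108936697, plus strand: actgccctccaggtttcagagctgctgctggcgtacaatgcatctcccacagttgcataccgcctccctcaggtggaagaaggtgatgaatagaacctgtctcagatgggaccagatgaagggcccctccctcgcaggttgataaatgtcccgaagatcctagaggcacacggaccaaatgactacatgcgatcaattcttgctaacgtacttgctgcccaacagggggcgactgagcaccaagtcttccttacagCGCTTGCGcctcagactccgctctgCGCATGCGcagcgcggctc
Cox6a1, chr5:115348909-115349208, minus strand: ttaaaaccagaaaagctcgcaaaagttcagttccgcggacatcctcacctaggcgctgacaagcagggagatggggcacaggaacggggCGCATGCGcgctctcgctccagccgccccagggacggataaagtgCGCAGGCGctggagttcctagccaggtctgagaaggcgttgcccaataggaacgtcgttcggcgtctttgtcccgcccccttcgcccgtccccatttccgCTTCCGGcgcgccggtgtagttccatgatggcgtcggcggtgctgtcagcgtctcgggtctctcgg
Atp5g3, chr2:73911277-73911576, minus strand: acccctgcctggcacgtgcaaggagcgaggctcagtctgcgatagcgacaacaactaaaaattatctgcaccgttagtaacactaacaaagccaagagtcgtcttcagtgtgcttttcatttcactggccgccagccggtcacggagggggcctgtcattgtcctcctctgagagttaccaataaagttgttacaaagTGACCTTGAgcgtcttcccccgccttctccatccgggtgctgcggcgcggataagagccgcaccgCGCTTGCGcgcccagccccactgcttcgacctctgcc
Cox8b, chr7:140900397-140900696, minus strand: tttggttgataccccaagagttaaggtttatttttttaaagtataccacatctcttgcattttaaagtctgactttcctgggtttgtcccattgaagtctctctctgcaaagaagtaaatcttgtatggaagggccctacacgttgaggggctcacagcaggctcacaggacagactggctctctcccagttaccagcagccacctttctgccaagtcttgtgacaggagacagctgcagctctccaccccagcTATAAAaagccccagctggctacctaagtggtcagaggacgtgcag

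The signal of each probe is given as log2 of the processed intensity minus the 75th percentile of its array, so that 0 is that percentile, and a difference of 1 is a doubling. A level of one probe says nothing about the level of another. Groups were compared with limma over 31945 tested probes, as EXO-HP minus EXO-STD, with a threshold of 0.05 on the adjusted p. None of the 84 members passed, against 0 of all 31945 probes (0.0%). In these bulk samples, fewer cells with a transcript and less of it per cell cannot be told apart. The labels speak of biological replicates without naming separate cultures or mice, so the spread may be partly technical. No core subunit had an unadjusted limma p under 0.05, as 5.59% of all probes did. Of the other members Cox8b had one, and it entered the test only through EXO-HP, the group where it was high. The brightest decile of tested probes held 63 of the core probes. There, 1 of 3195 probes had an unadjusted limma p under 0.05 with EXO-HP higher and 0 with EXO-HP lower.

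The median log2 fold change of the core subunits was -0.06, with 24 above 0, 49 below 0 and a range from -0.60 to 0.41, while the median over all probes was 0.07 and 37.2% of all probes were below 0. The brightest decile of tested probes, which held 63 core probes, had a median of -0.04 with 1909 of 3195 below 0. The smallest limma adjusted p of a core subunit was 0.99. The median standard error was 0.35, and for 39 of the 73 the 95% interval of the log2 fold change lay between -1 and 1. On slide 1, which held EXO-HP 1 and both EXO-STD arrays, the median of the core subunits was -0.31 with 68 of 73 below 0, and the median of all probes was 0.05. EXO-HP 2 and 3 lay on slide 2 with no EXO-STD array, so that no comparison within slide 2 was possible. With median scaling in place of the 75th percentile, the median was -0.23 for the core subunits (69 of 73 below 0) and -0.10 for all probes, and with quantile normalisation both were -0.02 (39 of 73 below 0). With slide as a random block the core median was -0.02, and with slide as either kind of block no member passed the threshold.

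**Figure D1:**
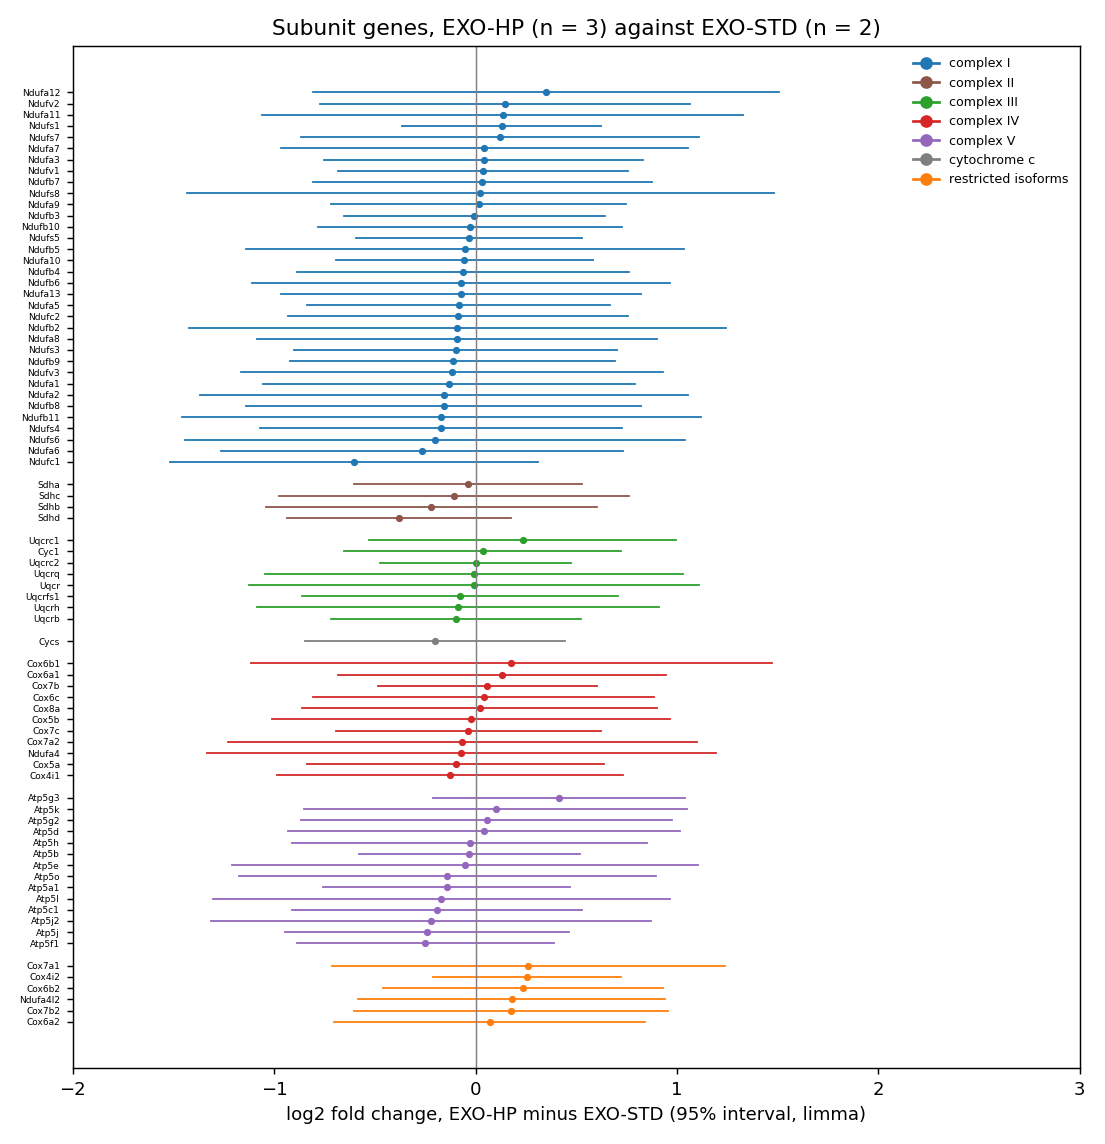
Log2 fold change of the tested core subunits and restricted isoforms, all but 2, EXO-HP (n = 3) minus EXO-STD (n = 2), with the 95% interval from limma as a line, ordered within each complex. The points of the core subunits lie between -0.60 and 0.41 with intervals that all cross 0. Cox8b, which was not well above background on either EXO-STD array, is not drawn.

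Complex I takes electrons from NADH. Of its 35 core genes, 12 had a log2 fold change above 0 and 23 below (median -0.06). Ndufc1, a small accessory subunit of the membrane arm, had signals of 4.58, 3.69 and 4.73 on EXO-HP 1 to 3, against 5.10 and 4.77 on EXO-STD 1 and 2. Its groups did not overlap, and EXO-HP 2 was by far the lowest array. Its log2 fold change of -0.60 ± 0.37 (SE) had a 95% interval of -1.52 to 0.31 and a limma adjusted p of 1.00, and without EXO-HP 2 it was -0.28. The probe lies at chr3:51209408-51209467 of build mm9, which is the build of all probe positions here. Groups that did not overlap made up 17.8% of all tested probes, 15.1% with EXO-HP higher and 2.76% with EXO-HP lower. In the brightest decile of tested probes, 106 of 3195 had EXO-HP higher without overlap and 87 had it lower. Of the 73 core subunits, 1 had EXO-HP higher without overlap and 2 had it lower.

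Ndufa12, an accessory subunit near the NADH-oxidising module, had 4.14, 4.82 and 4.26 on the EXO-HP arrays, against 4.75 and 3.36 on the EXO-STD arrays. The EXO-STD arrays lay 1.39 apart and enclosed nearly the whole EXO-HP range, and the log2 fold change was 0.35 ± 0.46 (SE). Ndufa6, an accessory subunit of the LYR protein family, had 2.82, 3.47 and 2.44 in EXO-HP, against 3.58 and 2.78 in EXO-STD. The groups overlapped, with a log2 fold change of -0.26 ± 0.40. Ndufa13, also known as GRIM-19 and needed for assembly of the complex, had 5.59, 6.43 and 5.84 in EXO-HP, against 6.39 and 5.66 in EXO-STD, a log2 fold change of -0.07 ± 0.36.

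Subunits that carry the electrons were also read. Ndufv1, which binds NADH and the flavin, had 4.45, 4.96 and 4.47 in EXO-HP, against 4.88 and 4.29 in EXO-STD, with a log2 fold change of 0.04 ± 0.29. Its 2 highest arrays were EXO-HP 2 and EXO-STD 1, and the groups overlapped. Ndufs1, the large iron-sulfur subunit, ran the other way, with 3.87, 3.77 and 3.98 in EXO-HP, against 3.63 and 3.85 in EXO-STD, and a log2 fold change of 0.13 ± 0.20. For Ndufs1, EXO-HP 2 and EXO-STD 1 were the lowest arrays of their groups.

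Complex II, succinate dehydrogenase, is also an enzyme of the citric acid cycle and has no subunit from mitochondrial DNA. All 4 of its genes had a log2 fold change below 0 (median -0.16). Without EXO-STD 1 the median was 0.15 with 1 of 4 below 0, and without EXO-HP 3 it was -0.08 with 2 of 4 below 0, as with the replicate block. Sdhd, a membrane anchor of the complex (probe at chr9:50404630-50404689), had 3.32, 3.74 and 3.37 in EXO-HP, against 3.93 and 3.78 in EXO-STD. The groups did not overlap, though the highest EXO-HP array lay only just under the lower EXO-STD array. The log2 fold change of -0.38 ± 0.22 had a 95% interval of -0.94 to 0.18 and a limma adjusted p of 0.99. It ranged from -0.56 with median scaling to -0.30 with scaling to the core subunits and stayed below 0 in all alternatives run.

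The other members of complex II overlapped between the groups. Sdha, the flavoprotein that oxidises succinate, had 3.28, 3.64 and 3.30 in EXO-HP, against 3.60 and 3.29 in EXO-STD (log2 fold change -0.04 ± 0.23). Sdhb, the iron-sulfur subunit, had 4.08, 4.68 and 4.22 in EXO-HP, against 4.94 and 4.15 in EXO-STD (-0.22 ± 0.33). Sdhc, the second anchor, had 1.84, 2.47 and 1.64 in EXO-HP, against 2.42 and 1.76 in EXO-STD (-0.11 ± 0.35). In all 3 the high arrays were EXO-HP 2 and EXO-STD 1.

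Complex III hands electrons from ubiquinol to cytochrome c. Its 8 genes lay between -0.10 and 0.23, 3 above and 5 below 0, with a median log2 fold change of -0.01, and no gene had groups without overlap. Uqcrc1, a core protein of the matrix side, had 2.26, 2.85 and 2.31 in EXO-HP, against 2.55 and 1.93 in EXO-STD (0.23 ± 0.31). Cyc1, cytochrome c1, had 3.37, 3.84 and 3.73 in EXO-HP, against 3.90 and 3.32 in EXO-STD (0.04 ± 0.28). Both ranges overlapped, and in Cyc1 the EXO-HP arrays lay wholly inside the EXO-STD pair.

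Uqcrfs1, the Rieske iron-sulfur protein, had 3.50, 4.21 and 3.73 in EXO-HP, against 4.20 and 3.58 in EXO-STD, with a log2 fold change of -0.08 ± 0.32. The small subunits Uqcrb and Uqcrq stood at -0.10 ± 0.25 and -0.01 ± 0.42. The 3 probes of Uqcrb ranged from -0.20 to 0.18. Cycs, the mobile cytochrome c, had 4.70, 5.18 and 4.78 in EXO-HP, against 5.32 and 4.86 in EXO-STD, a log2 fold change of -0.20 ± 0.26. Its groups overlapped, and its 3 probes differed in sign, from -0.20 to 0.21.

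Complex IV, cytochrome c oxidase, reduces oxygen. Its 11 core genes, counting Ndufa4, which was once placed in complex I, lay between -0.13 and 0.18, 5 above and 6 below 0 (median -0.02). Cox4i1, the broadly used form of the regulatory subunit, had 5.02, 5.68 and 5.03 in EXO-HP, against 5.75 and 4.99 in EXO-STD (-0.13 ± 0.35). Cox6b1, which faces the intermembrane space, had 1.82, 2.66 and 1.96 in EXO-HP, against 2.74 and 1.20 in EXO-STD (0.18 ± 0.52). Its EXO-STD arrays lay 1.54 apart, the widest gap of any core subunit, and enclosed all 3 EXO-HP arrays.

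Cox6a1, the broadly used form of a membrane subunit, had 6.66, 7.21 and 6.70 in EXO-HP, against 7.12 and 6.33 in EXO-STD, with a log2 fold change of 0.13 ± 0.33. Cox5a, a small subunit on the matrix side, had 5.14, 5.61 and 5.14 in EXO-HP, against 5.73 and 5.06 in EXO-STD, with -0.10 ± 0.30. Both showed the 2 high arrays, EXO-HP 2 and EXO-STD 1, and groups that overlapped.

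Complex V makes ATP with a catalytic head, a rotor ring of c subunits and a peripheral stalk. Of its 14 genes, 4 had a log2 fold change above 0 and 10 below, with a median of -0.10. Atp5g3, which encodes 1 of the identical mature forms of the c subunit (probe at chr2:73746519-73746578), had 5.55, 6.14 and 5.79 in EXO-HP, against 5.54 and 5.29 in EXO-STD. It was the only 1 of the 73 core subunits with EXO-HP above EXO-STD without overlap. The share was 15.1% of all tested probes, and 106 of 3195 in the brightest decile. Its lowest EXO-HP array lay just over EXO-STD 1. A log2 fold change of 0.41 ± 0.25 had a 95% interval of -0.21 to 1.04 and a limma adjusted p of 1.00, and on slide 1 alone it was 0.14. Atp5g2, which encodes the same mature c subunit, had 5.59, 6.18 and 5.60 in EXO-HP, against 6.22 and 5.25 in EXO-STD, with a log2 fold change of 0.06 ± 0.37.

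The catalytic head overlapped between the groups. Atp5b, the catalytic beta subunit, had 5.94, 6.16 and 5.99 in EXO-HP, against 6.26 and 5.86 in EXO-STD (-0.03 ± 0.22). Atp5a1, the alpha subunit, had 5.26, 5.36 and 5.24 in EXO-HP, against 5.73 and 5.13 in EXO-STD (-0.14 ± 0.25). Among the stalk subunits, Atp5f1 (now Atp5pb, subunit b) stood at -0.25 ± 0.26 and Atp5j, coupling factor 6, at -0.24 ± 0.28. All 5 probes of Atp5l, subunit g, had a log2 fold change below 0, from -0.48 to -0.17.

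Of the 23 members with several tested probes, 18 had log2 fold changes within 0.25 of each other, and 6 had probes on both sides of 0. The widest range was that of Cox7c (from -0.63 to -0.04 over 3 probes). Ndufb4 had 1 probe at -0.06 and 1 at 0.41. Many subunit genes have processed pseudogenes in the mouse genome, and binding of their transcripts to these probes was not tested.

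The isoforms of restricted tissues or states all belong with complex IV, since Ndufa4l2 is a paralog of its subunit Ndufa4. All 7 tested ones were above 0 in log2 fold change (median 0.24), where 62.8% of all tested probes were above 0. They lay from 0.07 to 0.26 without Cox8b, whose fold could not be measured. The signs depended on the scaling. With median scaling Cox6a2 was at -0.11 and Cox7b2 and Ndufa4l2 at 0.00, and with quantile normalisation Cox7b2 was at -0.39 and Ndufa4l2 at -0.02. Cox8b, the form of subunit VIII in heart and skeletal muscle of rodents (probe at chr7:148084852-148084911), had signals of -5.29, -5.66 and -6.70 in EXO-HP, against -7.03 and -7.99 in EXO-STD. Every EXO-HP array had it well above background, and neither EXO-STD array did. Its fold could therefore not be measured. In place of its EXO-STD signals, the dimmest signal that still counted as well above background was taken on each EXO-STD array. EXO-HP as a group stood 1.35-fold above that level. This value is not a strict lower bound, since the level is not specific to this probe and the value has no sampling error. EXO-HP 3 (-6.70) lay nearer to EXO-STD 1 (-7.03) than to the other EXO-HP arrays. The limma adjusted p of Cox8b was 0.88, so it did not pass the threshold.

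Cox7a1 and Cox6a2, the other forms of heart and skeletal muscle, did not separate the groups. Cox7a1 had -0.57, 0.64 and -0.29 in EXO-HP, against -0.25 and -0.42 in EXO-STD (0.26 ± 0.39), and only EXO-HP 2 stood above the rest. Cox6a2 had 0.86, 1.47 and 0.99 in EXO-HP, against 1.36 and 0.71 in EXO-STD (0.07 ± 0.31). Markers of skeletal muscle were read beside these genes, since the vesicles came from muscle. Of 16 markers, 12 were tested, and all 12 had a log2 fold change above 0 (median 0.48), though 3 of them (Ckm, Mylpf and Mb) passed the filter only through EXO-HP. The share above 0 was 62.8% over all tested probes. Other marker lists also had medians above 0, at 0.46 for acinar cells, 0.46 for adipocytes, 0.42 for endothelium, 0.28 for fibroblasts, 0.25 for macrophages and 0.19 for beta cells, while duct cells stood at 0.01 and other islet cells at 0.02. Some markers of these lists also passed the filter only through EXO-HP, which can raise such medians. They were Cpa1 and Amy2a5 (acinar), Adipoq (adipocyte), Cdh5, Tek and Emcn (endothelium), Dcn and Lum (fibroblast) and Krt19 (duct). Of these, Cdh5 (-0.03) and Lum (0.12) lay below the medians of their lists and the others above. The summed signal of the 16 muscle markers, in multiples of each array's 75th percentile, was 4.89, 3.20 and 3.15 in EXO-HP, against 3.00 and 2.65 in EXO-STD. Single probes weigh on the sum of EXO-HP 1. Myl1, which was not tested, had -0.40, -8.76 and -8.27 in EXO-HP, against -8.30 and -7.84 in EXO-STD. Each of the 16 was well above background on at least 1 array and 9 on all 5, and the part of such transcripts in the Cox8b signal was not tested.

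Cox4i2, the form of subunit IV induced by low oxygen and found in lung, had -0.95, -1.09 and -0.96 in EXO-HP, against -1.21 and -1.30 in EXO-STD. All EXO-HP arrays lay above both EXO-STD arrays, with a log2 fold change of 0.25 ± 0.19 (limma adjusted p = 1.00), which was 0.08 with median scaling. Ndufa4l2, the low-oxygen paralog of Ndufa4, had -4.10, -3.36 and -3.84 in EXO-HP, against -3.69 and -4.20 in EXO-STD, and overlapped (0.18 ± 0.31). The testis forms Cox6b2 and Cox7b2 stood at 0.24 ± 0.28 and 0.18 ± 0.31. Cox8c, a testis form, was too dim on every array to be tested.

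The 4 genes kept apart were Cox7a2l, a factor that joins complexes III and IV, Atp5s (now Dmac2l), Atp5sl (now Dmac2) and Cox4nb (now Emc8, of an endoplasmic reticulum complex). Their log2 fold changes lay between -0.26 and 0.04, and none had groups without overlap. Cox7a2l had 4.36, 4.98 and 4.18 in EXO-HP, against 5.18 and 4.09 in EXO-STD, so that its high arrays were those of the core subunits.

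The core subunits differed together between arrays of the same group. EXO-HP 2 and EXO-STD 1 were the 2 highest arrays for 66 of the 73 core subunits, against 22.5% of all tested probes. EXO-HP 2 was above the mean of EXO-HP 1 and 3 for 71 of them, against 61.4% of all probes, and the median difference was 0.63. EXO-STD 1 was above EXO-STD 2 for 71 of them, against 49.7% of all probes, and the median difference was 0.72. These counts rest on 1 probe per gene, and other probes of the same gene could differ. EXO-STD 1 minus EXO-STD 2 ran from -0.30 to 0.46 over the 3 probes of Cycs and from -0.40 to 0.47 over the 2 of Ndufb4. Over the 5 probes of Atp5l it ran from 0.93 to 1.17. Set against the EXO-STD mean of each gene, the core medians were -0.31, 0.40 and -0.21 on EXO-HP 1 to 3, against 0.36 and -0.36 on EXO-STD 1 and 2. EXO-HP 2 and 3 shared a slide and scan, and so did EXO-STD 1 and 2. That these arrays differ for respiratory genes was known when the members were chosen.

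**Figure D2:**
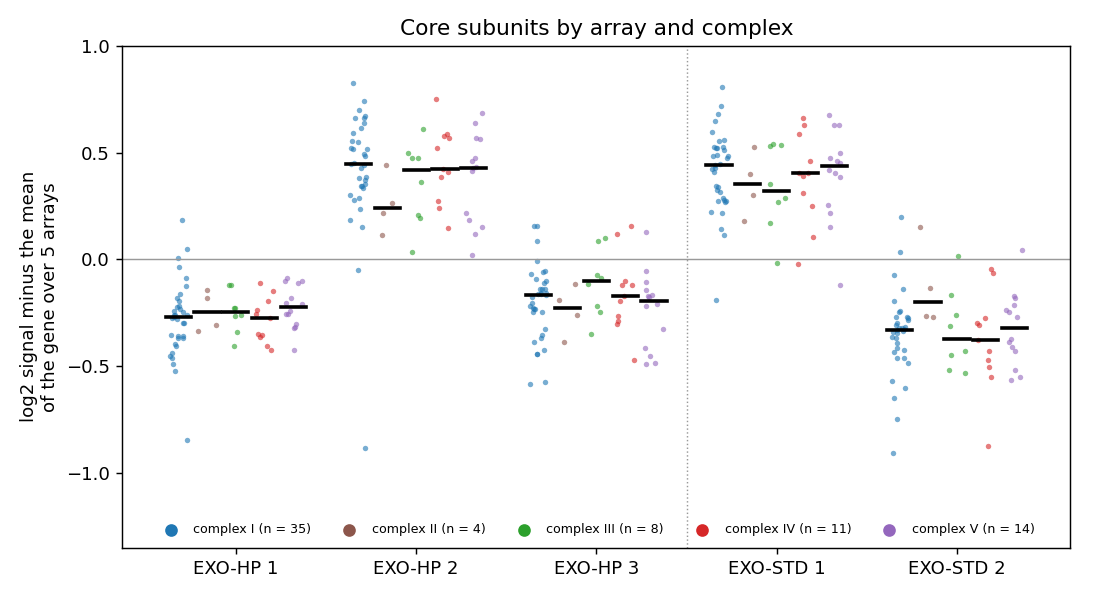
Log2 signal of each core subunit minus its mean over the 5 arrays, by array and complex, with a black bar at the median of each complex. Every complex has its highest medians on EXO-HP 2 and EXO-STD 1.

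All 5 complexes took part. The median difference of EXO-HP 2 from EXO-HP 1 and 3 was 0.70 in complex I, 0.46 in complex II, 0.58 in complex III, 0.66 in complex IV and 0.60 in complex V. Between EXO-STD 1 and EXO-STD 2 the medians were 0.74, 0.49, 0.62, 0.78 and 0.68 in the same order of complexes. EXO-HP 2 and EXO-STD 1 were the 2 highest arrays for 33 of 35 genes of complex I, 3 of 4 of complex II, 7 of 8 of complex III, 9 of 11 of complex IV and 13 of 14 of complex V.

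Single genes differed in size. Ndufs8, an iron-sulfur subunit of complex I, had 1.18, 2.36 and 1.09 in EXO-HP, against 2.25 and 0.78 in EXO-STD. Ndufb11, an accessory subunit of the membrane arm, had 4.88, 5.80 and 4.86 in EXO-HP, against 6.06 and 4.65 in EXO-STD. In both genes EXO-HP 2 and EXO-STD 1 stood well apart from the other 3 arrays.

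Several genes did not follow the common pattern. Uqcrc2, the other core protein of complex III, lay between 3.86 and 4.07 on all 5 arrays. Its probe has 10 spots on an array, where the other core probes have 1. Cox7b, a small subunit of complex IV, had 3.96, 4.34 and 4.35 in EXO-HP, against 4.17 and 4.15 in EXO-STD. Of the genes of complex I, Ndufs1 was lower on EXO-HP 2 and EXO-STD 1, and Ndufc1 was low on EXO-HP 2 alone. Across the 73 genes, the difference within EXO-HP and that within EXO-STD had a Pearson r of 0.643 and a Spearman rho of 0.672. Over all 31945 tested probes the same relation had a Pearson r of 0.0558 and a Spearman rho of 0.3. These values are a description only, since the genes share arrays, scaling and probe positions.

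**Figure D3:**
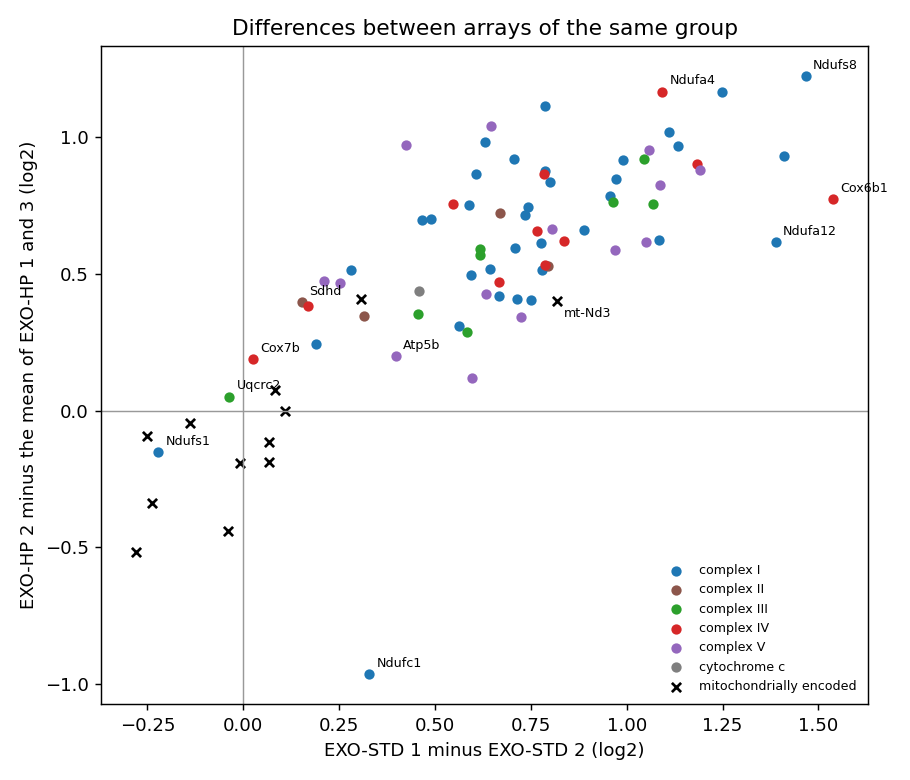
Each point is a gene, with EXO-HP 2 minus the mean of EXO-HP 1 and 3 on the y axis and EXO-STD 1 minus EXO-STD 2 on the x axis, both in log2 units. Core subunits crowd the upper right (r = 0.643 over 73 genes), and the mitochondrially encoded subunits, drawn as crosses, lie mostly near or below 0. Over all tested probes, which are not drawn, the Pearson r was 0.0558 and the Spearman rho 0.3.

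Several measures moved with this pattern. Each probe has a start listed in the array tables, read here as its position along the transcript, which was not checked against transcripts. The median start was 505 for the core subunits and 1489 for all tested probes, and 36 of 73 core subunits had a start of 1 to 500. Among tested probes in the 3 brightest deciles, those with a start of 1 to 500 had a median difference of 0.58 between EXO-HP 2 and the other EXO-HP arrays. For a start above 4000 the same median was -0.24. Between EXO-STD 1 and EXO-STD 2 the medians were 0.59 for a start of 1 to 500 and -0.24 above 4000. Core subunits with a start of 1 to 500 stood at 0.76 and 0.79 in these differences, and the 3 with a start above 2000 (Ndufs1, Sdha and Atp5a1) at 0.12 and 0.31.

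Brightness of the probe also moved with it. The signals of 63 core probes lay in the brightest decile of tested probes, where EXO-HP 2 and EXO-STD 1 were the 2 highest arrays for 1843 of 3195 probes. The median differences in that decile were 0.33 within EXO-HP and 0.37 within EXO-STD. Once the median of probes of the same start class was subtracted on each array, the core medians were 0.28 within EXO-HP and 0.56 within EXO-STD. With start class and brightness decile both subtracted, they were 0.14 and 0.20. With quantile normalisation they were 0.29 and 0.33, and they were 0.34 and 0.32 in the deposited log2 values. The shares of spots well above background were 74.0%, 91.6% and 81.6% on EXO-HP 1 to 3, against 73.4% and 71.8% on EXO-STD 1 and 2, and their part in the pattern was not tested.

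**Figure D4:**
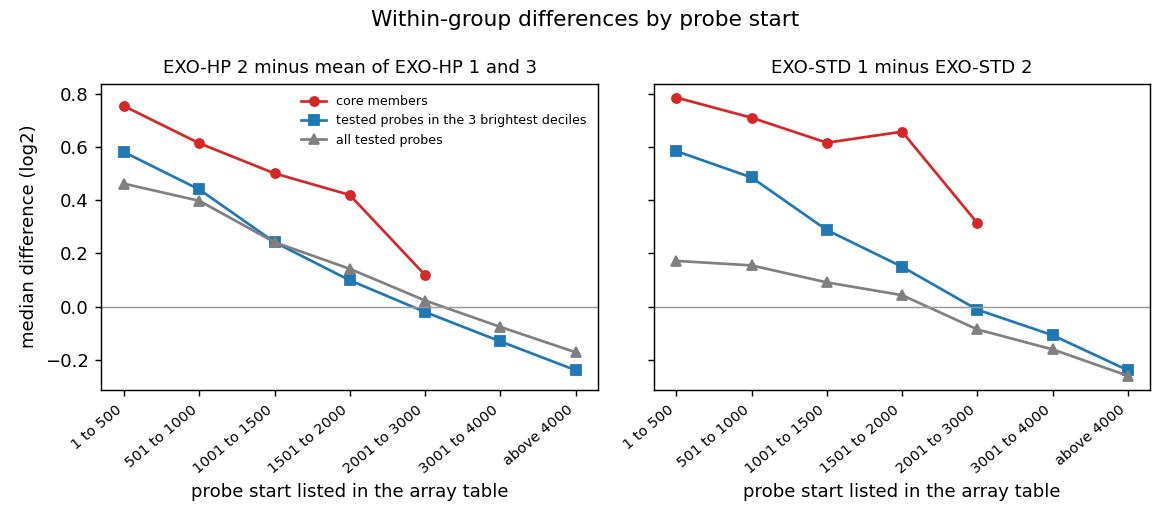
Median difference of EXO-HP 2 from the mean of EXO-HP 1 and 3 (left) and of EXO-STD 1 from EXO-STD 2 (right), in log2 units, by class of listed probe start, for core subunits, the 3 brightest deciles and all tested probes. In the 3 brightest deciles the medians run from 0.58 and 0.59 at a start of 1 to 500 down to -0.24 in both plots at a start over 4000, and the core subunits lie above the other probes in each class they fill.

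The subunits encoded in mitochondrial DNA did not share the pattern as a set. Of 13 such genes, 12 were on the array, all well above background on all 5 arrays, and their median probe start was 535.5. EXO-HP 2 and EXO-STD 1 were the 2 highest arrays for 2 of 12. The median difference of EXO-HP 2 from the other EXO-HP arrays was -0.11, and that of EXO-STD 1 from EXO-STD 2 was 0.03. An exception was mt-Nd3, a complex I subunit, with 4.28, 4.82 and 4.56 in EXO-HP, against 4.93 and 4.11 in EXO-STD.

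Between the groups, 9 of the 12 had a log2 fold change above 0, against 62.8% of all tested probes. The other 3 were below 0, the median was 0.09, and none of the 12 passed the threshold. Those whose EXO-HP arrays lay above both EXO-STD arrays numbered 4 of 12, mt-Nd6, mt-Co1, mt-Co2 and mt-Atp8. The share over all tested probes was 15.1%, and 2.76% for EXO-HP below EXO-STD without overlap. For mt-Nd6, a complex I subunit from the other strand of mitochondrial DNA, the signals were -0.44, -0.69 and -0.54 in EXO-HP, against -0.82 and -0.81 in EXO-STD (0.26 ± 0.19). For mt-Nd1 the signals were 2.66, 2.40 and 2.53 in EXO-HP, against 2.79 and 2.73 in EXO-STD, and EXO-HP lay below without overlap (-0.23 ± 0.19). Of the others named by rule, mt-Nd5 stood at 0.22 ± 0.23 and mt-Nd4 at -0.11 ± 0.20. Transcripts of mt-Nd4 and mt-Nd4l, and of mt-Atp8 and mt-Atp6, are shared, so probes of these genes cannot be read apart.

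**Figure D5:**
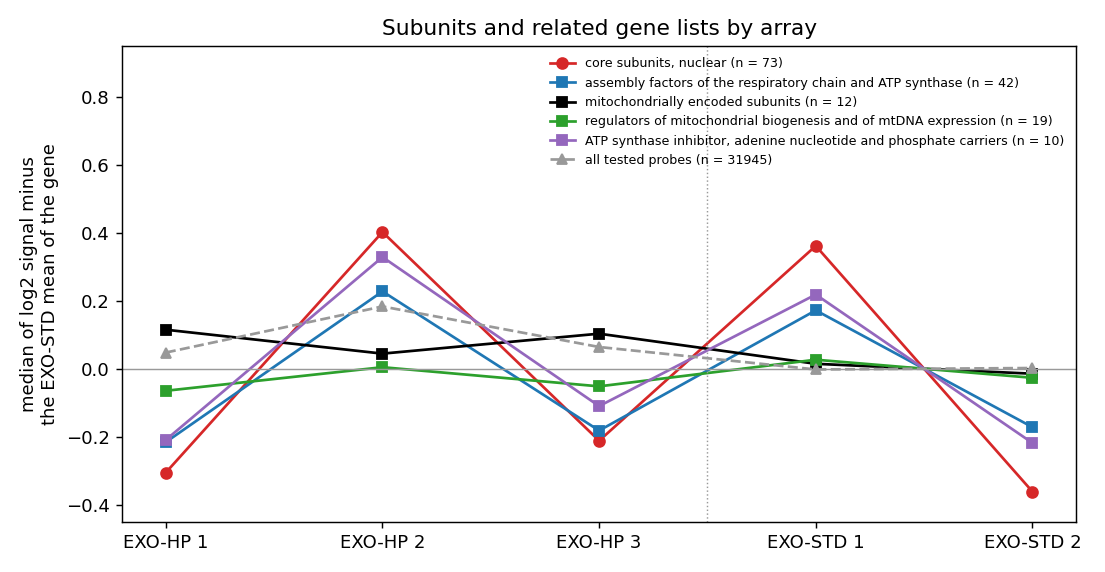
Median log2 signal of each gene list on each array, relative to the EXO-STD mean of each gene, with all tested probes as a dashed line. The core subunits run from -0.31 on EXO-HP 1 to 0.40 on EXO-HP 2, and the mitochondrially encoded subunits stay between -0.01 and 0.11.

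Assembly factors, which build the complexes without staying in them, showed a smaller form of the pattern. Of 45 listed, 42 were tested, with 15 above and 27 below 0 (median log2 fold change -0.06) and a median probe start of 890. EXO-HP 2 and EXO-STD 1 were the 2 highest arrays for 26 of 42, and the array medians were -0.22, 0.23 and -0.18 in EXO-HP, against 0.17 and -0.17 in EXO-STD. Cox17, the copper chaperone for complex IV, had -4.68, -5.31 and -4.57 in EXO-HP, against -4.18 and -3.06 in EXO-STD. Its EXO-HP arrays lay below both EXO-STD arrays, with a log2 fold change of -1.23 ± 0.42 (limma unadjusted p = 0.028, adjusted p = 0.89), and it was the only listed assembly factor with an unadjusted p under 0.05. Ndufaf1, a complex I factor, had 0.51, 0.50 and 0.37 in EXO-HP, against 0.89 and 0.54 in EXO-STD, without overlap (-0.26 ± 0.21). Timmdc1, another complex I factor, stood at 0.28 ± 0.21, and Cox11, a second copper factor, at 0.17 ± 0.21.

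Regulators of mitochondrial biogenesis had list medians near 0 on every array, while single members went both ways. EXO-HP 2 differed from the mean of EXO-HP 1 and 3 by -0.48 to 1.47, and EXO-STD 1 from EXO-STD 2 by -0.71 to 1.25. Of 20 listed, 19 were tested (5 above and 14 below 0, median -0.07), and the array medians were -0.06, 0.00 and -0.05 in EXO-HP, against 0.03 and -0.03 in EXO-STD. Esrra, which encodes ERR alpha, had 0.33, 0.66 and -0.04 in EXO-HP, against 0.83 and 0.55 in EXO-STD (-0.37 ± 0.27). Tfam, the packaging and transcription factor of mitochondrial DNA, had 2.06, 1.79 and 1.61 in EXO-HP, against 1.99 and 2.20 in EXO-STD (-0.28 ± 0.23). Both genes overlapped between the groups. Nrf1 itself had -0.01, 0.16 and 0.05 in EXO-HP, against -0.01 and 0.16 in EXO-STD. Polg2, the accessory subunit of the mitochondrial DNA polymerase, stood at 0.51 ± 0.41 with its 2 tested probes at -0.24 and 0.51, and Twnk, the helicase, at 0.16 ± 0.20.

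A list of 10 genes held the ATP synthase inhibitor, carriers of adenine nucleotides and phosphate, Ucp2, Vdac1, Vdac2, Vdac3 and Ndufab1. The member rule did not match the name Ndufab1. This mixed list followed the core subunits, with array medians of -0.21, 0.33 and -0.11 in EXO-HP, against 0.22 and -0.22 in EXO-STD. Of its 10 tested genes, 3 were above and 7 below 0 (median -0.02), and the median probe start was 1126. Atpif1, the inhibitor, had 5.55, 6.12 and 5.58 in EXO-HP, against 6.05 and 5.46 in EXO-STD. Slc25a5, an adenine nucleotide carrier, had 2.56, 3.09 and 2.50 in EXO-HP, against 3.32 and 2.44 in EXO-STD (-0.17 ± 0.35). Ucp2, an uncoupling protein known in beta cells, stood at -0.14 ± 0.24, and Vdac1, the outer membrane channel, at 0.16 ± 0.26. Slc25a31, the testis carrier, was not well above background on either EXO-STD array.

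A short list of genes that cells switch on in low oxygen, which holds Cox4i2 and Ndufa4l2, had 6 tested members with 2 above and 4 below 0 (median -0.40). Bnip3, a mitophagy receptor, had 1.91, 2.11 and 2.06 in EXO-HP, against 3.30 and 2.58 in EXO-STD, without overlap (-0.92 ± 0.27, limma adjusted p = 0.88). Ldha, lactate dehydrogenase A, had 1.30, 2.33 and 1.96 in EXO-HP, against 4.67 and 2.81 in EXO-STD, without overlap (-1.88 ± 0.61, adjusted p = 0.88). None of the 6 passed the threshold, and the 2 subunit isoforms on the list lay above 0 where the other tested genes lay below.

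Markers of beta cells were also read. All 12 beta cell markers were well above background on all 5 arrays, with summed signals of 995, 889 and 947 times the 75th percentile in EXO-HP, against 859 and 814 in EXO-STD. EXO-HP 2 and EXO-STD 1 were the 2 highest arrays for 2 of these 12. The sums rest mostly on Chga, Ins2, Ins1 and Iapp, while Slc2a2 and Ucn3 lay below the 75th percentile on every array. Gcg, a hormone of other islet cells, had 5.02, 5.52 and 5.43 in EXO-HP, against 5.36 and 5.25 in EXO-STD.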

How the data were processed

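RNA of 5 samples was read on 1-colour Agilent arrays, 1 array each. Per the file headers, the deposited scanner tables hold spot intensity values from Feature Extraction 10.7.3.1, where the notes of the submitters' processing list version 9.1 and limma without a role. The deposited table of the series holds log2 values with a median of 7.93 on every array, and their ranks equalled those of mean signal minus background (Spearman rho = 1). All its columns were matched, leaving 0 unmatched.

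The processed intensity was put on the log2 scale and, after removal of outlier spots, averaged per probe, and the 75th percentile of the array's non-control probes was subtracted. Each array had 43020 non-control spots of 39429 probes, and 0 were saturated. A probe was tested if it had usable spots everywhere (110 did not) and reached the scanner's well-above-background call on 2 or more arrays in either group (7374 did not), which left 31945. Groups came from the source names in the labels. The test was limma's moderated linear model without covariates (version 3.58.1, R 4.3.3), with Benjamini-Hochberg adjustment over all tested probes, 3 residual degrees of freedom and 2.59 prior ones. The script was tested on simulated data. The number of arrays limits the precision, and an exact permutation test of 3 against 2 arrays cannot give a p under 0.2.

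The members, gene lists and alternatives were chosen with earlier results of these data known. Named were, in complexes I, III, IV and V, the 3 core subunits of smallest unadjusted p and the brightest one, all of complex II, Cyc1, Cycs, all restricted isoforms, the catalytic and electron-carrying subunits and the genes of subunit c. From each list, the 2 genes of smallest p in each direction were named. Members that did not follow the pattern between arrays, the widest movers, Cox7a2l, Atp5l, Cox7c, Ndufb4, mt-Nd3, Nrf1 and Atpif1 were chosen after their values were seen. Atp5g1, which the rule also names, was not analysed here, and 1 other gene it names is not reported here. Probe positions are of build mm9, per the file headers, and exons were not annotated. Promoters came from RefSeq (GRCm38.p6), matched by symbol. Alternatives covered scaling, background correction, the deposited table, the filter, slide, replicate numbers, single arrays and probe position.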

Additional observations from a re-analysis of the deposited data

How the results depend on the processing

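In all 19 alternatives, 15 planned and 4 added after seeing the data, 0 members passed the limma threshold. The number of members with an unadjusted p under 0.05 lay between 0 and 2, and the smallest adjusted p of a member was 0.466, without EXO-HP 1. Over all probes, 3 passed without EXO-STD 1 and 0 in the other settings, and those with an unadjusted p under 0.05 numbered 1787 in the reported setting and from 489 (normexp and quantile) to 3410 (without EXO-HP 1) in the others.

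Leaving out 1 array at a time moved the median log2 difference of every complex across 0. It ranged from -0.44 to 0.31 for the core subunits, -0.46 to 0.31 for complex I, -0.45 to 0.15 for complex II, -0.36 to 0.36 for complex III, -0.41 to 0.37 for complex IV and -0.45 to 0.32 for complex V. The highest value of each was without EXO-STD 1, and the cause was not tested. Without EXO-HP 2 and EXO-STD 1 together, the core median was 0.08 with 17 of 73 below 0. It was -0.21 after removal of the probe start classes (68 below 0), 0.00 after removal of start and brightness classes (36 below 0), -0.03 with normexp and -0.04 in the deposited table. Of 644 values of named members under the alternatives, 102 had the other sign and 25 moved by over 1 SD, and 0 had an adjusted p under 0.05.

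The groups share replicate numbers 1 and 2, and the labels name no shared animal or day. Deviations of same-numbered arrays had a Pearson r of 0.0247 for number 1 and -0.0558 for number 2. With 2 EXO-STD arrays, crossed numbers give the same values with the other sign, so this check cannot decide whether the arrays were paired. With the replicate block the core median was 0.02, 31 of 73 were below 0 and 0 members passed.

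The slides and groups are partly confounded, since slide 2 held EXO-HP arrays only.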

Other observations

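Slc25a3, the mitochondrial phosphate carrier, had 2.32, 4.51 and 3.96 on EXO-HP 1 to 3, against 3.90 and 3.57 on EXO-STD 1 and 2, and was chosen after its values were seen. EXO-HP 1 stood far below the other 4 arrays, and the log2 fold change was -0.14 ± 0.66 (SE). Ttc19, a complex III assembly factor, had 5.72, 5.38 and 5.64 in EXO-HP, against 5.54 and 5.49 in EXO-STD, so that EXO-HP 2 was its lowest array. Uqcc2, another complex III assembly factor, had 4.20, 5.57 and 4.53 in EXO-HP, against 5.18 and 4.23 in EXO-STD, so that its high arrays were those of the core subunits.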
